A study of Homo sapiens with 8 samples.

Results

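The genes described here are 9 members of the retinoid pathway: the retinoic acid receptors *RARA*, *RARB* and *RARG*, the binding protein *CRABP2*, the retinaldehyde dehydrogenases *ALDH1A1*, *ALDH1A2* and *ALDH1A3*, the retinoic acid responder *RARRES1* and the retinoic acid hydroxylase *CYP26B1*. They were chosen by gene symbol, as every non-control probe that the array annotates to 1 of these names, which gave 13 of the 50599 distinct probes on each array. The cells were HCT116, an established colorectal cancer line, and RNA was measured on 8 one-colour microarrays with 60-base probes. CONT1 and CONT2 were clones carrying a negative-control microRNA plasmid, and TET1-KD1 and TET1-KD2 were clones stably carrying a vector against *TET1*, which encodes a dioxygenase that oxidises methylated cytosine. Each of these 4 clones was profiled once untreated and once after 72 h with the DNA methyltransferase inhibitor 5-aza-2'-deoxycytidine (here 5-aza-dC, at 1 μM), so that each of the 4 conditions held 2 arrays from separate clones. All clones had been selected in G418, and each array represents a single clone. Titles and descriptions set the conditions, because the treatment field marks the control arrays as mock and the knockdown arrays as treated throughout.

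Retinol is taken up from the blood and oxidised first to retinal and then, by the ALDH1A enzymes, to retinoic acid. CRABP2 carries retinoic acid to the nucleus, where the RAR proteins, paired with RXR proteins, bind response elements in target genes, and CYP26 enzymes break the ligand down. *RARB* is itself a target of retinoic acid, and *RARB* and *RARRES1* are known for silencing with promoter methylation in many carcinomas, including those of the colon.

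The signals below are log2 values of the scanner's processed intensity after each array was scaled to a common 75th percentile. They compare arrays for 1 probe and do not rank probes or genes. On the main probe for *TET1*, log2 signals were 9.70 and 9.75 in untreated CONT1 and CONT2 and 8.65 and 9.41 in untreated TET1-KD1 and TET1-KD2, a fitted difference of -0.69 (limma, Benjamini-Hochberg adjusted p = 0.61). A second *TET1* probe read 6.12 and 6.10 against 4.56 and 5.71, a difference of -0.98 (limma, Benjamini-Hochberg adjusted p = 0.58). The remaining probe read 4.95 and 4.38 in untreated control clones and was below background in the knockdown clones, at least 1.20-fold lower (limma, Benjamini-Hochberg adjusted p = 0.37). After treatment the main *TET1* probe read 9.64 and 9.64 in the control clones and 8.99 and 9.48 in the knockdown clones. Of 7 epithelial markers, 6 were above background on all 8 arrays. Of 8 markers of leukocytes, fibroblasts and endothelium, 3 were (*PTPRC*, *CD14* and *COL1A1*) and *COL3A1* was on none. *PTPRC* was so on its brightest probe alone, and its other probes were above background on 3, 1, 0 and 0 arrays. The summed signal of these 8 markers, as linear scaled intensity, was 515 to 596 in untreated and 1156 to 1395 in treated control clones. In the knockdown clones it was 500.3 to 643 and 901 to 1012, and its part in the results was not tested. Of the 8 arrays, only those of treated CONT1 and CONT2 were on a separate, second slide. Slide and 5-aza-dC therefore cannot be told apart in the control clones or in any comparison that uses those arrays. Synthetic transcripts added to every sample read lower on that slide, before scaling, by up to 1.00 on the log2 scale. The comparison within knockdown clones and that of untreated clones lay on the first slide.

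*RARB*, *RARRES1*, *ALDH1A1* and *ALDH1A2* stayed near or below the array background before and after 5-aza-dC. None of their 6 probes was above background on both arrays of any condition, so that none was tested. The lowest signal that the scanner called well above background was between 3.98 and 4.61 on the 8 arrays.

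*RARB* encodes a receptor that retinoic acid itself induces. Its promoter was read from RefSeq (GRCh38.p14), which placed 4 start sites for this gene. The one shown is the window among 15 member windows, of 300 bases each, that held a DR5 retinoic acid response element, a direct repeat of a nuclear receptor half-site with a spacer of 5 bases, searched on both strands. The capitals mark this element, which began 53 bases before the start site. The 250 bases before that site lie at chr3:25428013-25428262 on the plus strand.
RARB: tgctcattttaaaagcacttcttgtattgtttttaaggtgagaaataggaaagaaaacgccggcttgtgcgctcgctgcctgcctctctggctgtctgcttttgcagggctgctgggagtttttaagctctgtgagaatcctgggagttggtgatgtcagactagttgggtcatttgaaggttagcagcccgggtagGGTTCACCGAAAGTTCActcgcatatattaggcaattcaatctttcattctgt
A DR5 element was in 31 of 35116 RefSeq promoter windows, or 0.0883%. An element with a spacer of 2 bases (DR2) was in 14 of all windows, or 0.0399%, and in no member window. Both *RARB* probes were dim on all 8 arrays. The probe at chr3:25636109-25636168 (hg19, plus strand) has the sequence given here, since a silent reading rests on it.
RARB probe A_33_P3305749: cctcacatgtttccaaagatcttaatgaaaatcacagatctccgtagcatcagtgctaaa
Over both probes the log2 signal ran from 1.82 to 2.72, and 0 of 8 arrays were above background on either.

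*RARRES1*, a retinoic acid responsive gene, had log2 signals of 2.06 to 3.05 and was above background on 0 of 8 arrays. Its promoter window held 28 CpG dinucleotides, against a median of 14 over all windows (quartiles 4 and 28). *ALDH1A1* and *ALDH1A2* encode enzymes that make retinoic acid from retinal. The brighter *ALDH1A1* probe read 4.32 and 2.19 in the untreated and 2.58 and 2.67 in the treated control clones. It read 4.43 and 3.21 in the untreated and 3.61 and 3.97 in the treated knockdown clones, and was called above background on none of these arrays. *ALDH1A2* read 2.17 and 1.98 in the untreated and 3.46 and 4.79 in the treated control clones. The knockdown clones read 2.00 and 2.38 before and 3.57 and 1.85 after treatment. The treated CONT2 array was the 1 array of 8 on which *ALDH1A2* was above background. The other *ALDH1A2* readings, treated and untreated, were below background, so that their order over the arrays is not a measured response.

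**Figure D1:**
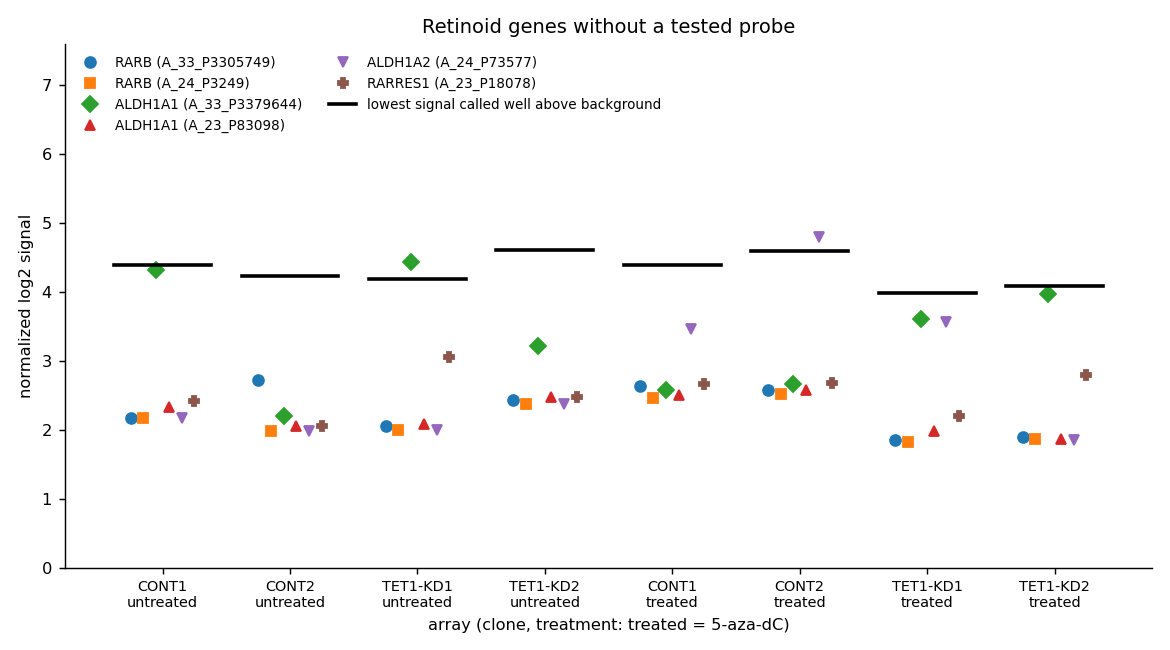
Normalized log2 signal (vertical axis) of the 6 probes for RARB, ALDH1A1, ALDH1A2 and RARRES1 on each of the 8 arrays (horizontal axis), with a black line for the lowest signal called well above background on that array. All points lie between 1.82 and 4.79, and ALDH1A2 in treated CONT2 is the 1 point called above background.

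The other 5 members, with 7 probes, were above background on all 8 arrays and were tested. After 5-aza-dC, 4 of these 5 changed in the control clones: *RARG*, *CRABP2* and *ALDH1A3* fell by 1.65, 1.61 and 1.50 on the log2 scale and *CYP26B1* rose by 0.88 (limma, Benjamini-Hochberg adjusted over 27287 probes). Over all 19688 genes tested, 41.8% changed in this comparison, 20.5% higher and 21.3% lower. The median log2 change was -1.50 over the 5 members and -0.05 over all genes. Limma called no member in the knockdown clones, where 12.5% of genes changed, 9.45% higher and 3.09% lower. There, 3 of the 5 members had an unadjusted p under 0.05, against 29.0% of all genes, and the median change was -0.06 both over the members and over all genes. The methods' t-test gave 4 members in control clones before Benjamini-Hochberg adjustment and 0 after it, and 0 both times in knockdown clones. With no filter on dim probes, *RARG* and *CRABP2* passed in control clones.

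**Figure D2:**
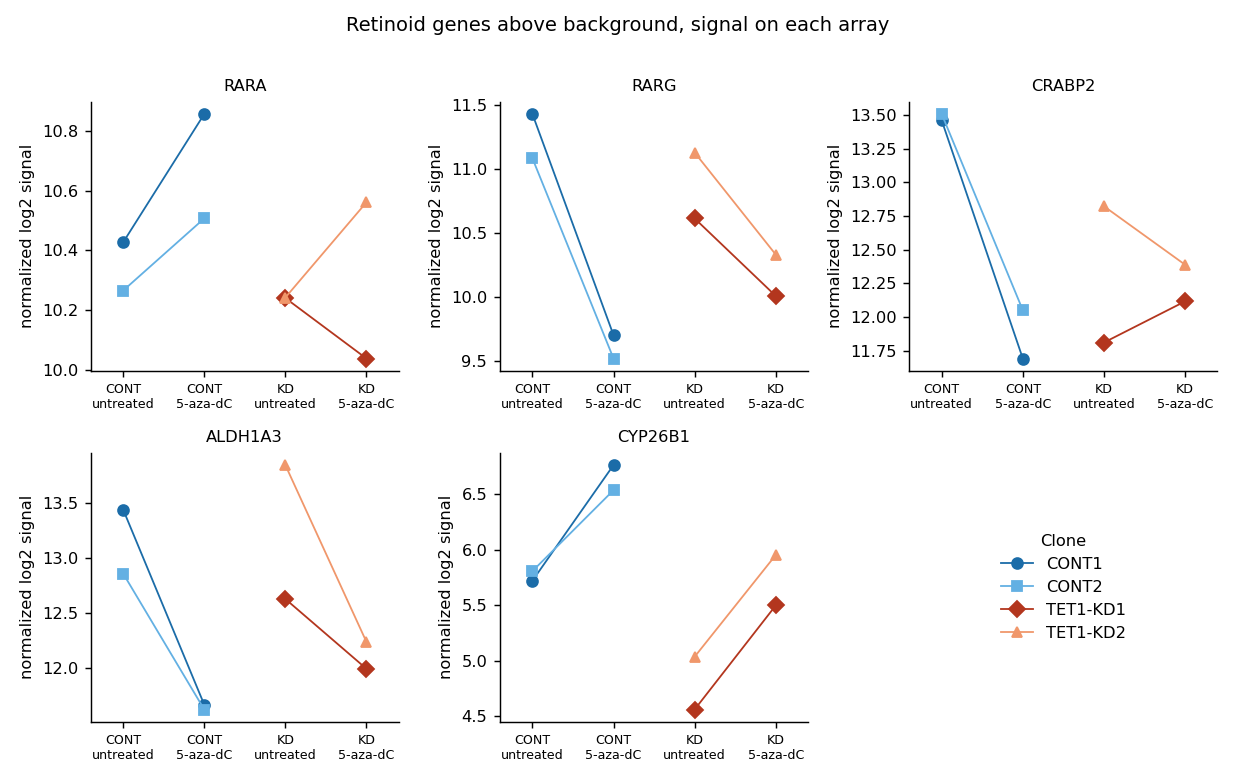
Normalized log2 signal (vertical axes, with a separate range for each gene) of the main probe of 5 members in untreated and 5-aza-dC treated cultures (horizontal axes). Lines join the 2 arrays of a clone. RARG, CRABP2 and ALDH1A3 fell in both control clones, and CYP26B1 was higher after treatment in all 4 clones.

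*RARG* encodes the gamma receptor for retinoic acid, and its probe lies at chr12:53604565-53604624 (hg19, minus strand). Its log2 signal was 11.43 and 11.08 in untreated CONT1 and CONT2 and 9.70 and 9.52 after treatment. In TET1-KD1 and TET1-KD2 it was 10.61 and 11.13 untreated and 10.01 and 10.33 treated. Treated and untreated arrays did not overlap in either kind of clone, and the treated control arrays were the lowest of the 8. The change in control clones was -1.65 ± 0.24 (SE, n = 2 clones), 3.13-fold lower (limma, Benjamini-Hochberg adjusted p = 0.0033), and it passed the threshold whichever of the 8 arrays was left out. In the knockdown clones it was -0.70 ± 0.24 (SE, n = 2; limma, Benjamini-Hochberg adjusted p = 0.12). With each clone as a block, limma's Benjamini-Hochberg adjusted p for this lower value was 0.043. The difference between the 2 responses was 0.95 ± 0.34 (limma, Benjamini-Hochberg adjusted p = 0.16). Untreated, the knockdown clones differed from the control clones by -0.39 ± 0.24, and their arrays overlapped (limma, Benjamini-Hochberg adjusted p = 0.66). Among treated clones the difference was 0.56 ± 0.24, with no overlap (limma, Benjamini-Hochberg adjusted p = 0.16).

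*RARA*, the gene of the alpha receptor, did not pass the test in any comparison. The main probe (chr17:38512928-38512987, hg19, plus strand) read 10.43 and 10.27 in the untreated and 10.86 and 10.51 in the treated control clones. It read 10.24 and 10.24 in the untreated and 10.04 and 10.56 in the treated knockdown clones, and so spanned less than 1 log2 unit over the 8 arrays. The fitted changes with treatment were 0.34 ± 0.23 in control and 0.06 ± 0.23 in knockdown clones (limma, Benjamini-Hochberg adjusted p = 0.27 and 0.90). After the trend of the responses with probe GC content was taken out, the value in control clones was 0.71 and passed the threshold (limma, Benjamini-Hochberg adjusted p = 0.034). A second *RARA* probe (chr17:38513174-38513233) read 7.93 and 7.79 in the untreated and 9.49 and 8.18 in the treated control clones. The difference on this probe was 1.56 on the log2 scale in CONT1 and 0.39 in CONT2. In the knockdown clones this probe read 7.61 and 7.70 untreated and 7.49 and 7.38 treated. Treated knockdown and control clones differed on it by -1.40 ± 0.40 (limma, Benjamini-Hochberg adjusted p = 0.056).

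*CRABP2* delivers retinoic acid to the receptors. Its main probe (chr1:156669579-156669638, hg19, minus strand) read 13.46 and 13.51 in the untreated and 11.69 and 12.05 in the treated control clones. In TET1-KD1 and TET1-KD2 it read 11.81 and 12.82 untreated and 12.12 and 12.39 treated. The untreated control arrays were the 2 highest, and the knockdown arrays overlapped with and without treatment. In control clones the change was -1.61 ± 0.34 (SE, n = 2), 3.05-fold lower (limma, Benjamini-Hochberg adjusted p = 0.012). The change in knockdown clones was -0.06 ± 0.34 (limma, Benjamini-Hochberg adjusted p = 0.93), with 0.30 in TET1-KD1 and -0.43 in TET1-KD2. The difference between the responses, 1.55 ± 0.48, did not pass the threshold (limma, Benjamini-Hochberg adjusted p = 0.12). It did without the untreated TET1-KD2 array, at 2.05 (limma, Benjamini-Hochberg adjusted p = 0.044). Untreated knockdown clones were lower by 1.16 on the log2 scale without overlap (limma, Benjamini-Hochberg adjusted p = 0.51). The fall in control clones lost the threshold without either untreated control array or without treated CONT1, at values of -1.63, -1.59 and -1.43. A second probe (chr1:156675546-156675605), designed on another *CRABP2* transcript, changed by -0.41 ± 0.25 in control and 0.53 ± 0.25 in knockdown clones (limma, Benjamini-Hochberg adjusted p = 0.23 for both).

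The 250 bases before the start sites of *RARG*, *CRABP2*, *ALDH1A3* and *CYP26B1*, the 4 members that changed, are shown because 5-aza-dC acts on methylation at CpG dinucleotides, which the capitals mark. Positions are from RefSeq on GRCh38.p14. They are chr12:53232210-53232459 (minus strand) for *RARG*, chr1:156705785-156706034 (minus) for *CRABP2*, chr15:100879581-100879830 (plus) for *ALDH1A3* and chr2:72147863-72148112 (minus) for *CYP26B1*.
RARG: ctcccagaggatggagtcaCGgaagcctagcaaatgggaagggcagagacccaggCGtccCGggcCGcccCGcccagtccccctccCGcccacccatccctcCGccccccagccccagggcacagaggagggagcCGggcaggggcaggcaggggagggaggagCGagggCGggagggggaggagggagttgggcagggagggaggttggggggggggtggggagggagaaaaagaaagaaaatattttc
CRABP2: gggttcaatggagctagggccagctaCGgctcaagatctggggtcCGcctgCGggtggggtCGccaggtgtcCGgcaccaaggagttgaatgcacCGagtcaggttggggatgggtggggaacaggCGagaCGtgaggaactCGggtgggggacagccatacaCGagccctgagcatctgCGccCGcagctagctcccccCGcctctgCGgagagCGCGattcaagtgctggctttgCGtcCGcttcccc
ALDH1A3: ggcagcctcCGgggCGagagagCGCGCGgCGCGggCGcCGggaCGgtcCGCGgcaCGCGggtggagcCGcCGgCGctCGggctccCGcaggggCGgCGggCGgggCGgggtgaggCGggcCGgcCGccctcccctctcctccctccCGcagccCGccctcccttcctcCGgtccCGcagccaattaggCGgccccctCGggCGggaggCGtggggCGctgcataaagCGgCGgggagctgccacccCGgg
CYP26B1: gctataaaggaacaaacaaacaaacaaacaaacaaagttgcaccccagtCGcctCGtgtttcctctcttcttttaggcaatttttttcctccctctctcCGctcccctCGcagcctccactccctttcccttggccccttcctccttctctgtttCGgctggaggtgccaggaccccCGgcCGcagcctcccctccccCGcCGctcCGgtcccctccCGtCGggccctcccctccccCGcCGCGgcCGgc
These stretches held 10 CpG dinucleotides for *RARG*, 18 for *CRABP2*, 38 for *ALDH1A3* and 16 for *CYP26B1*. Over the whole 300-base windows the counts were 14, 20, 46 and 19, against the median of 14 over all windows. *RARA*, the tested member that was not called, had 3 windows with 12 to 22 CpG. Among members without a tested probe the windows ran from 1 CpG for 1 start each of *RARB* and *ALDH1A2* to 41 for the other *ALDH1A2* start. Methylation itself was not measured on these arrays.

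*ALDH1A3*, the gene of the remaining retinaldehyde dehydrogenase, was well above background on every array. Its probe (chr15:101456503-101456562, hg19, plus strand) read 13.44 and 12.86 in the untreated and 11.67 and 11.62 in the treated control clones. In TET1-KD1 and TET1-KD2 it read 12.63 and 13.84 untreated and 11.99 and 12.24 treated. Each clone was lower after treatment, and treated arrays lay below untreated arrays in both kinds. The change was -1.50 ± 0.41 (SE, n = 2) in control clones, 2.83-fold lower (limma, Benjamini-Hochberg adjusted p = 0.028), and -1.12 ± 0.41 in knockdown clones (limma, Benjamini-Hochberg adjusted p = 0.14). The responses differed by 0.38 ± 0.58 (limma, Benjamini-Hochberg adjusted p = 0.72). Untreated knockdown and control clones overlapped, with a difference of 0.09 ± 0.41 (limma, Benjamini-Hochberg adjusted p = 0.96), and the 2 knockdown clones lay 1 log2 unit or more apart. Without any 1 of the 4 control arrays the fall in control clones lost the threshold, at -1.21 to -1.79. Without untreated TET1-KD1 the change in knockdown clones passed it, at -1.73 (limma, Benjamini-Hochberg adjusted p = 0.029).

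*CYP26B1* encodes an enzyme that inactivates retinoic acid. Its probe (chr2:72357430-72357489, hg19, minus strand) read 5.72 and 5.81 in the untreated and 6.76 and 6.53 in the treated control clones. In TET1-KD1 and TET1-KD2 it read 4.56 and 5.04 untreated and 5.50 and 5.95 treated. It was the member with the most even response, with differences of 1.04, 0.73, 0.94 and 0.91 in CONT1, CONT2, TET1-KD1 and TET1-KD2. The rise was 0.88 ± 0.24 (SE, n = 2) in control clones, 1.84-fold (limma, Benjamini-Hochberg adjusted p = 0.027). In knockdown clones the difference was 0.92 ± 0.24 (limma, Benjamini-Hochberg adjusted p = 0.057), and with each clone as a block limma gave a Benjamini-Hochberg adjusted p of 0.028. The responses differed by 0.04 ± 0.34 (limma, Benjamini-Hochberg adjusted p = 0.95). Under quantile normalization the rise in control clones was 0.62 and after removal of the GC trend 0.45, and neither passed the threshold (limma, Benjamini-Hochberg adjusted p = 0.071 and 0.16). Without any 1 of the 4 control arrays it lost the threshold too, at 0.77 to 1.00.

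*CYP26B1* was also the member that differed between knockdown and control clones. Treated knockdown clones were lower by 0.92 ± 0.24 on the log2 scale, 1.90-fold (limma, Benjamini-Hochberg adjusted p = 0.044), in a comparison in which 18.4% of genes changed. This call was lost when any 1 of 6 arrays was left out, both treated knockdown arrays and all 4 control arrays, with values of -0.70 to -1.15. Untreated knockdown clones were lower by 0.96 ± 0.24 with no overlap (limma, Benjamini-Hochberg adjusted p = 0.47). Among untreated clones limma called no member, where 0.0203% of genes changed, and 2 members had an unadjusted p under 0.05, against 8.22% of all genes. The methods' t-test gave 0 members in either comparison, before or after Benjamini-Hochberg adjustment.

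**Figure D3:**
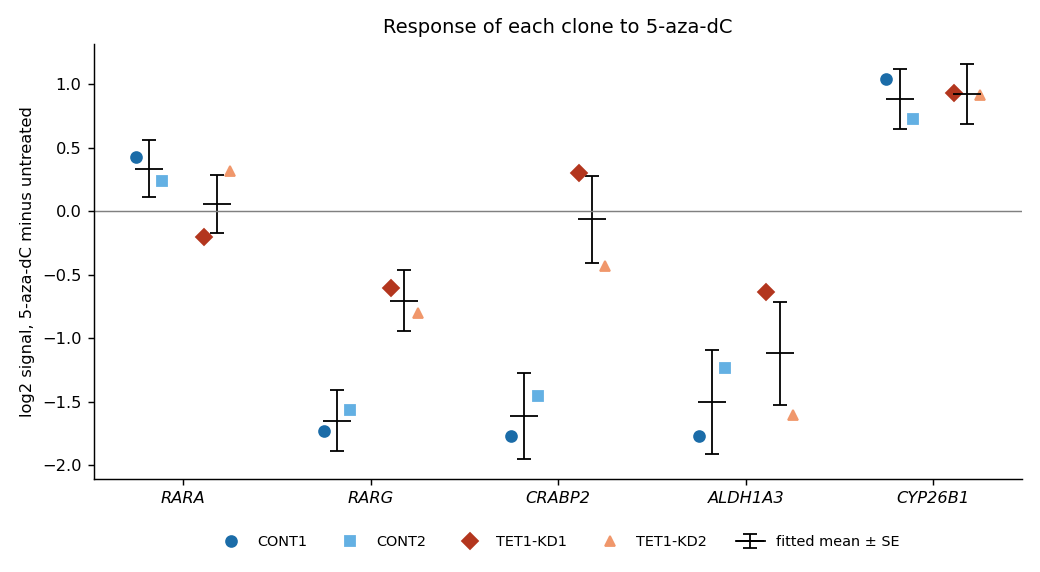
Change in normalized log2 signal with 5-aza-dC (vertical axis) in each clone for the main probe of 5 members (horizontal axis), with the fitted mean of each kind of clone ± SE. For RARG and CRABP2 both control clones lie below both knockdown clones, and for CYP26B1 all 4 clones lie between 0.73 and 1.04.

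In the direct test of whether control and knockdown clones responded differently, limma called none of the 5 members, against 5.27% of genes, and 2 members (*RARG* and *CRABP2*) had an unadjusted p under 0.05, against 24.2% of all genes. For those 2 genes the change was more negative in both control clones than in either knockdown clone. The 2 genes were picked by their unadjusted p in the same test, so this order of clones adds no support of its own. *RARG* changed by -1.73 and -1.57 in CONT1 and CONT2 and by -0.61 and -0.80 in TET1-KD1 and TET1-KD2, and *CRABP2* by -1.76 and -1.45 in the control clones. The control clones' changes carry the second slide with them. Every array was also put on the first slide's synthetic transcript signals and rescaled. The control changes were then -1.79 for *RARG*, -2.10 for *CRABP2*, -1.96 for *ALDH1A3* and 0.82 for *CYP26B1*, each past the threshold. This step adjusts an array by signal level alone, so that it cannot separate slide from 5-aza-dC for a single probe. It also moved the median control change of all probes by -0.26.

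The genes whose profile over the 8 arrays came closest were found by the root mean square difference of log2 signal, after each probe was centred on its own mean. This was set for the 3 members with the widest range, of which *ALDH1A2* and *ALDH1A1* had no tested probe. For *ALDH1A3* the closest were *SKP2*, *ERI1* and *NQO1*, at 0.220, 0.220 and 0.227 log2 units. *CYP26B1* and *RARG* came next by range and were added afterwards. Nearest to *CYP26B1* were *EPB41*, *SYNPO* and *CILP2* at 0.174, 0.184 and 0.185, and nearest to *RARG* were *FGD3*, *WDR27* and *SIRT3* at 0.0976, 0.118 and 0.118.

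A further 49 genes of retinoid transport, metabolism and response were measured, and 35 had a tested probe. After 5-aza-dC, 14 of these 35 changed in control clones, 9 higher and 5 lower, and 5 changed in knockdown clones, all higher. These are 40.0% and 14.3% of the 35, near the 41.8% and 12.5% of all genes. Of the 9 that rose, *RBP4*, *STRA6*, *STRA8*, *RARRES2* and *SDR16C5* were above background only on treated arrays, so that the filter on dim probes already required a higher treated signal. *SDR16C5* was so only in the treated knockdown clones, and its control arrays were all below background. The median log2 change of the 35 was 0.10 in both kinds of clone. The same filter let in 3 of the 5 called in knockdown clones (*RBP4*, *STRA6* and *STRA8*), so that these counts carry no weight of their own. Of the 5 genes that fell in control clones, *RDH11*, *RDH14*, *RDH16* and *DHRS3* belong to the oxidation and reduction of retinol and retinal. That class held 10 tested genes, of which these 4 were called lower and 1, *SDR16C5*, was called higher. Over all genes 21.3% were called lower and 20.5% higher, and the class was not tested against these shares. *RDH16* was below background on both treated control arrays, so that its fall was at least 1.43-fold. None of the 4 partner receptors, the 3 RXR genes and *PPARD*, passed the test in either kind of clone.

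**Figure D4:**
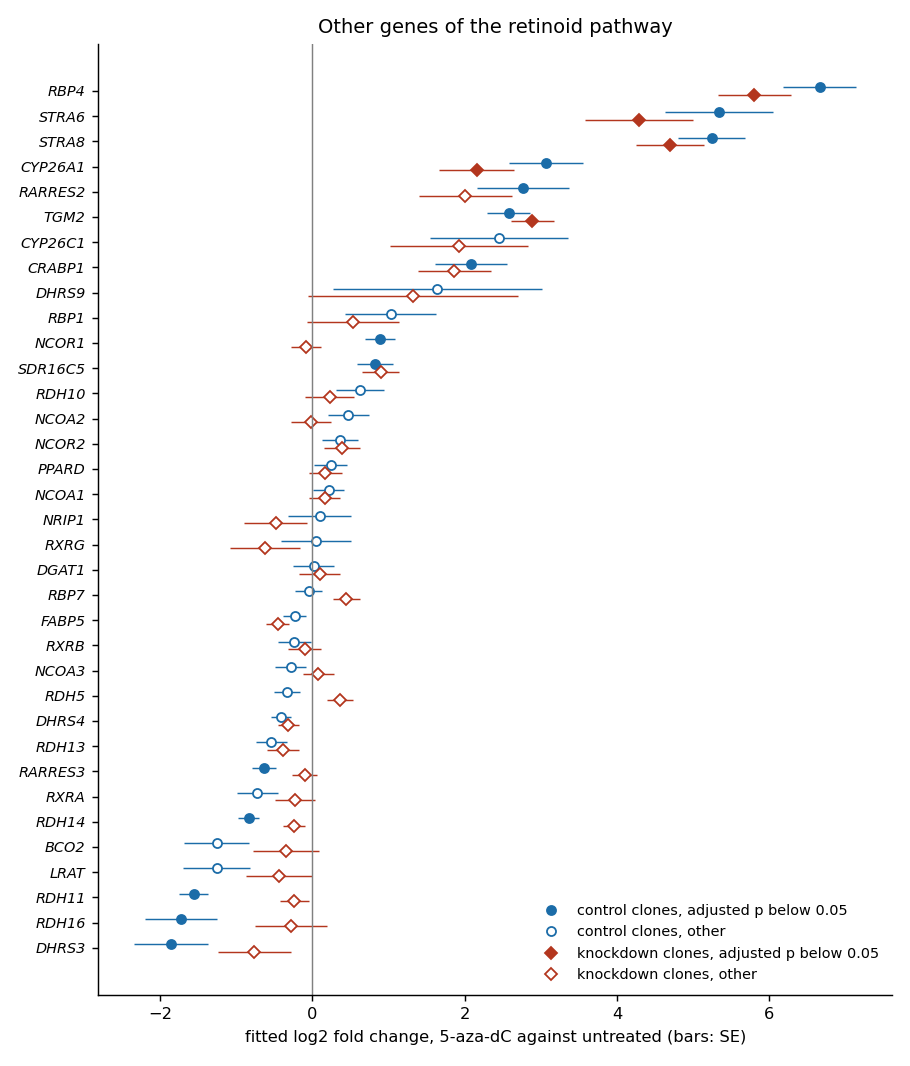
Fitted log2 change with 5-aza-dC ± SE (horizontal axis) for 35 further retinoid genes (vertical axis, ordered by the change in control clones), in control clones (blue circles) and knockdown clones (red diamonds). Filled symbols passed the threshold. Where a gene was below background in untreated cells its fitted change is no bound. RBP4, STRA6, STRA8, CYP26A1 and TGM2 were filled in both kinds.

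*RBP4*, the carrier of retinol in blood, read 2.05 to 2.21 in untreated and 8.78 and 8.81 in treated control clones, and 2.03 and 2.40 before and 7.23 and 8.81 after treatment in knockdown clones. Untreated arrays were below background, so the rise was at least 22.2-fold in control and at least 12.3-fold in knockdown clones (limma, Benjamini-Hochberg adjusted p = 0.00027 and 0.00074). These bounds set the treated mean against the lowest signal called well above background. The p-values given with bounds belong to the fitted changes, which use readings below background. Probes with a bound on a rise passed the filter on dim probes only through treated arrays, so these p-values are no separate support. In knockdown clones the *RBP4* bound was 7.10-fold without treated TET1-KD2 and 21.2-fold without treated TET1-KD1. *STRA6*, the membrane receptor for RBP4, rose at least 14.9-fold and at least 7.05-fold (limma, Benjamini-Hochberg adjusted p = 0.0024 and 0.014). Its log2 signal was 2.06 to 3.69 on untreated arrays and 6.39 to 8.53 on treated arrays. The *STRA6* bound in knockdown clones was 3.98-fold without treated TET1-KD2 and 12.5-fold without treated TET1-KD1. That call was lost without treated TET1-KD2 or either untreated knockdown array, at fitted changes of 3.46, 3.98 and 4.60.

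*CRABP1*, the other cellular retinoic acid binding protein gene, had probes that agreed in direction and differed in size. The brightest read 5.72 to 6.08 on untreated and 7.03 to 8.43 on treated arrays, a change of 2.08 ± 0.48 in control and 1.86 ± 0.48 in knockdown clones (limma, Benjamini-Hochberg adjusted p = 0.016 and 0.057). The control call was lost without either untreated control array or treated CONT1, at 2.19, 1.98 and 1.71, and the change in knockdown clones passed without treated TET1-KD1, at 2.56. The other read 1.95 to 2.36 on untreated arrays, below background, and 9.22 to 11.57 on treated arrays. It was above background only on treated arrays, so that the filter on dim probes already required a higher treated signal. Its rise was at least 114-fold in control and at least 49.5-fold in knockdown clones (limma, Benjamini-Hochberg adjusted p = 0.00014 and 0.00037). The latter bound was 28.2-fold without treated TET1-KD2 and 86.8-fold without treated TET1-KD1. *CRABP2* thus did not rise in control clones on either of its probes while *CRABP1* rose on both.

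*CYP26A1*, a family member that retinoic acid itself induces, was above background on all 8 arrays. It read 7.14 and 6.03 in untreated and 10.04 and 9.27 in treated control clones, and 6.33 and 5.91 before and 7.83 and 8.73 after treatment in knockdown clones. The rise was 3.07 ± 0.49 in control and 2.16 ± 0.49 in knockdown clones (limma, Benjamini-Hochberg adjusted p = 0.0044 and 0.040). The call in knockdown clones was lost without any 1 of 5 arrays, both untreated knockdown arrays, treated TET1-KD2 and both treated control arrays, at 1.71 to 2.37. It was also lost in the fit of the first slide alone, at an unchanged 2.16 (limma, Benjamini-Hochberg adjusted p = 0.059). The bases before its start site (GRCh38.p14, chr10:93073643-93073892, plus strand) are shown because this was the 1 window of 59, over the 36 further genes matched in RefSeq, with a DR5 element. The capitals mark it, 90 bases before the start.
CYP26A1: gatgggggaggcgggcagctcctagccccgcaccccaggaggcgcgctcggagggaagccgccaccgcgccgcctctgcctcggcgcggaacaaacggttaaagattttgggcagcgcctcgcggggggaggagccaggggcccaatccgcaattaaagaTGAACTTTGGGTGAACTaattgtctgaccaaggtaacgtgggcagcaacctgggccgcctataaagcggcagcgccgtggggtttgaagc
The 2 retinoid promoters with this element thus belonged to *RARB*, dim on every array, and *CYP26A1*, higher in all 4 treated cultures.

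Among retinoic acid responsive genes, *TGM2*, a transglutaminase, rose by 2.58 ± 0.28 in control and 2.89 ± 0.28 in knockdown clones on its main probe (limma, Benjamini-Hochberg adjusted p = 0.0012 and 0.0015). A second *TGM2* probe changed by -1.08 in CONT1 and -0.51 in CONT2 and by 2.67 and 2.94 in TET1-KD1 and TET1-KD2. With both probes averaged the change in control clones was 0.89 (limma, Benjamini-Hochberg adjusted p = 0.12). *STRA8*, known from germ cells entering meiosis, rose at least 9.93-fold and at least 6.96-fold (limma, Benjamini-Hochberg adjusted p = 0.00045 and 0.0013). The *STRA8* bound in knockdown clones was 4.78-fold without treated TET1-KD2. *RARRES2*, the gene of chemerin, rose at least 1.57-fold in control clones (limma, Benjamini-Hochberg adjusted p = 0.014) and, in knockdown clones, was above background in treated TET1-KD2 alone. *STRA8* and *RARRES2* were below background on all untreated arrays. The filter on dim probes thus already required a higher treated signal for both, so their p-values are no separate support for a rise. The *RARRES2* call was lost without either untreated control array or treated CONT2, at fitted changes of 2.64, 2.90 and 2.54. *DHRS3*, which reduces retinal to retinol, fell by 1.86 ± 0.48 on the log2 scale in control clones (limma, Benjamini-Hochberg adjusted p = 0.024), a call lost without any 1 of the 4 control arrays, at -1.68 to -2.03. In the knockdown clones the 2 clones differed, with 0.20 in TET1-KD1 and -1.72 in TET1-KD2, and the mean change was -0.76 ± 0.48 (limma, Benjamini-Hochberg adjusted p = 0.36). Without untreated TET1-KD1 it was -1.53 and passed the threshold (limma, Benjamini-Hochberg adjusted p = 0.034), and without untreated TET1-KD2 it was 0.01.

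**Figure D5:**
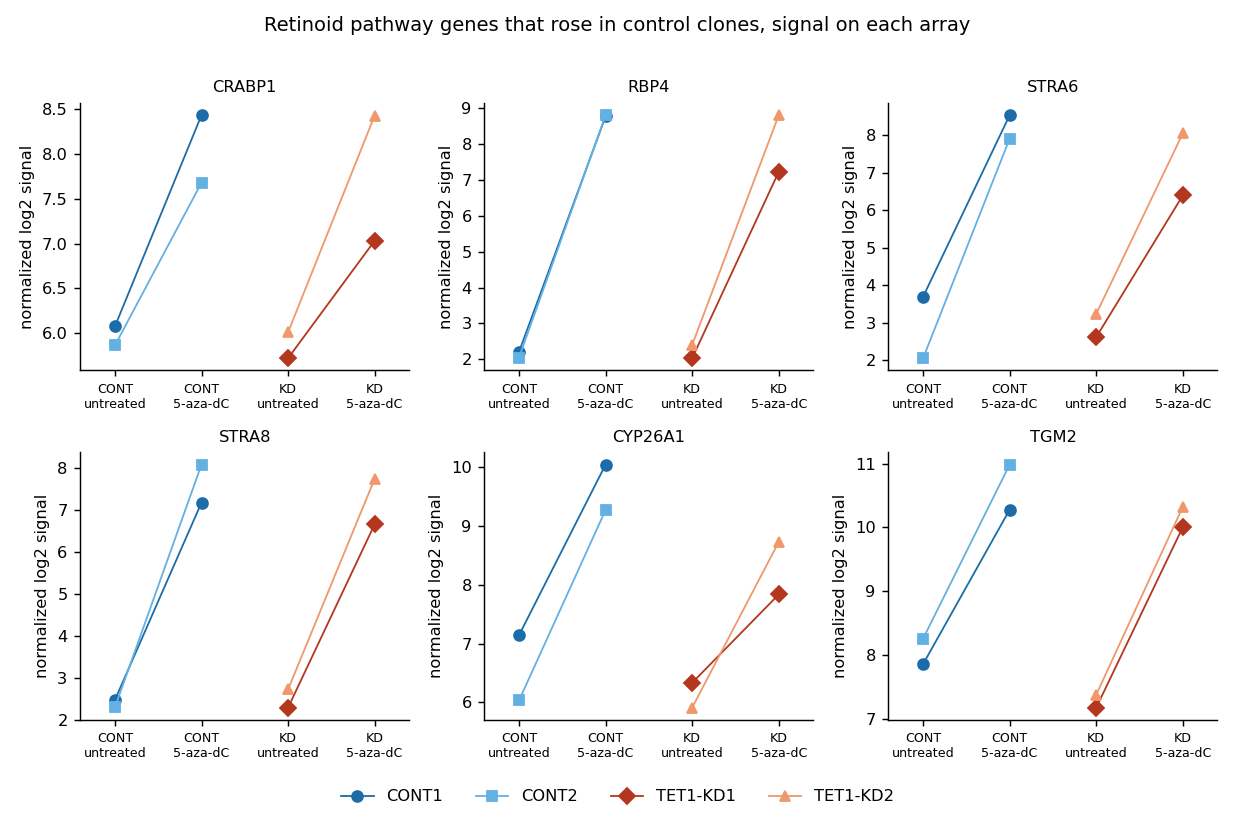
Normalized log2 signal (vertical axes, with a separate range for each gene) of the main probe of CRABP1, RBP4, STRA6, STRA8, CYP26A1 and TGM2 in untreated and treated cultures (horizontal axes), with lines joining the 2 arrays of a clone. All 6 were higher after treatment in each of the 4 clones.

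*RDH11*, a retinal reductase, was the 1 gene of the 35 (2.86%, against 5.27% of all genes) whose response differed between the kinds of clone. It read 12.33 and 12.49 in untreated and 10.77 and 10.93 in treated control clones, and 12.62 and 12.41 before and 12.46 and 12.09 after treatment in knockdown clones. The 2 treated control arrays stood apart from the other 6. The change was -1.56 ± 0.19 in control and -0.24 ± 0.19 in knockdown clones (limma, Benjamini-Hochberg adjusted p = 0.0017 and 0.47), a difference of 1.32 ± 0.27 (limma, Benjamini-Hochberg adjusted p = 0.046). That difference lost the threshold whichever array was left out, at 1.14 to 1.51. Treated knockdown clones were higher than treated control clones for *RDH11* and *RDH14*, a related reductase, and lower for *NCOR1*, a co-repressor of the RAR proteins, on its main probe. With the 3 *NCOR1* probes averaged, that direction turned. The 3 genes called between treated clones were 8.57% of the 35, against 18.4% of all genes. No gene of the 35 passed the test between untreated clones, where 1 had an unadjusted p under 0.05 (2.86%, against 8.22% of all genes), and the methods' t-test gave 1 before and 0 after adjustment.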

How the data were processed

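The authors labelled RNA in 1 colour, hybridised it to Agilent arrays annotated on hg19 and extracted the spots with Feature Extraction 10.7.3.1 (per the file headers). The deposited intensity values are that software's processed signals, and a deposited value table holds the same intensities rounded. Here spots with outlier flags were left out, intensities were divided by each array's 75th percentile, floored at 1 and taken as log2, and the copies of a probe on an array were averaged. Testing was limited to probes that both arrays of some condition showed above background, which were 27287 of the 50543 probes with a value on every array, and 20938 of these were above background on all 8. The number of arrays limits the precision. Group means were fitted over all 8 arrays with limma 3.58.1 in R 4.3.3, and p-values were adjusted by Benjamini-Hochberg over all tested probes at a threshold of 0.05. A gene was counted by its brightest tested probe. A saturated or dim group gives only a bound on a fold. All 9 members were named, and of the 49 further genes up to 8 with the largest change per comparison. Members and lists were chosen with earlier results of these data known. Same-numbered arrays come from the same clone, and their deviations from the group means correlated at 0.198 in control and 0.476 in knockdown clones. The fit was tested on simulated data. Alternatives were normexp with an offset of 50, quantile normalization, other filters on dim probes, flagged spots kept, a clone block, fits of fewer arrays, the methods' t-test, interpolation on 8 synthetic transcripts, a GC trend, averaged probes, the deposited value table and leaving out each array. Promoter sequences were matched by symbol for all 9 members, with 15 windows. P-values and SE rest on the spread between 2 clones per condition, pooled over the 4 conditions and moderated by limma over all tested probes. The main fit leaves out the pairing of arrays by clone. Arrays held 29490 to 34276 spots well above background and a 75th percentile intensity of 395.5 to 623.7. No column of per-sample values was left unused.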

Additional observations from a re-analysis of the deposited data

Results flagged for a closer look

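4 probes of further retinoid genes had a response to 5-aza-dC that differed between knockdown and control clones by limma's test of that difference. Each had a Benjamini-Hochberg adjusted p under the threshold, as did 1522 of all 27287 tested probes. Counted by brightest probe, 1 of the 35 genes passed (2.86%), against 5.27% of all genes. The fitted difference, knockdown minus control, was -2.04 on the log2 scale for the second *STRA6* probe. All untreated arrays were below background on this probe, so that its rise was at least 4.94-fold in control and at least 1.16-fold in knockdown clones, and the size of the difference in response is not measured. On treated arrays, where it was above background, it read 6.76 and 6.48 in control and 4.23 and 4.99 in knockdown clones, a difference of -2.01 (limma, Benjamini-Hochberg adjusted p = 0.0076). On the brighter *STRA6* probe it was -1.05 (limma, Benjamini-Hochberg adjusted p = 0.57). A second *DGAT1* probe differed by -1.55, with 1.44 in control and -0.10 in knockdown clones, while the brighter probe of this gene of ester synthesis differed by 0.08 (limma, Benjamini-Hochberg adjusted p = 0.92). *RDH11* differed by 1.32. A second *TGM2* probe differed by 3.60, with -0.80 in control and 2.80 in knockdown clones, and the brighter *TGM2* probe by 0.31 (limma, Benjamini-Hochberg adjusted p = 0.67). All 4 differences use the treated control arrays, whose slide held none of the other arrays studied here.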

How the results depend on the processing

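Leaving out each array in turn, with a lone array assumed to vary like the other groups, gave 1 to 4 members in the control clones' response (4 with all arrays), 0 to 1 in the knockdown clones' response, 0 to 1 in the difference in response, 0 to 1 between treated clones and 0 between untreated clones. *RARG* stayed past the threshold in control clones each time. The other 49 genes gave 7 to 15 in control clones (14 with all arrays), 3 to 7 in knockdown clones (5), 1 to 4 between treated clones (3), 0 for the difference in response (1) and 0 between untreated clones. With no filter on dim probes, 2 members (*RARG* and *CRABP2*) passed in control clones, 0 between treated clones and 0 further genes in the difference in response. The methods' t-test gave 0 members in control clones after Benjamini-Hochberg adjustment and 4 at its unadjusted threshold, 0 members between treated clones, 3 further genes in control clones, 0 in knockdown clones and 0 between treated clones. With the replicate block, 2 members passed in knockdown clones (*RARG* and *CYP26B1*), and it changed no other member's call. GC trend removal gave 1 member there (*RARG*), and in control clones 4, with *RARA* in and *CYP26B1* out. Between treated clones it called *RARA*, at -0.99, in place of *CYP26B1*. Restriction to the 2 groups compared gave 0 members and 1 further gene between treated clones, quantile normalization gave 5 further genes there, and probes above background on all arrays gave 2 further genes in knockdown clones. With probes of a gene averaged, *NCOR1* between treated clones turned to 0.11 (limma, Benjamini-Hochberg adjusted p = 0.73). Its 3 probes disagreed, at 0.88, 0.01 and -0.88 in control clones. Among all probes the control clones' calls were 5234 higher and 6168 lower, against 4558 and 7496 with quantile normalization and 3990 and 9072 with synthetic transcripts. The latter moved the median of all probes by -0.26, and the GC trend by -0.15. The cause of these shifts was not tested.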
